A study of Mus musculus with 13 samples.

Results

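Cdkn1a and Cdkn1c are 2 genes that hold the cell cycle in check, and they are described here by every CUT&RUN peak that fell in a window around each of them. Cdkn1a encodes p21Cip1 and Cdkn1c encodes p57Kip2. The Cdkn1a window ran from 29260000 to 29370000 on chromosome 17 and the Cdkn1c window from 142962000 to 143065000 on chromosome 7 (GRCm39), 110 and 103 kb. Together they held 35 of the 178951 peaks of 13 lists, 29 in the Cdkn1a window and 6 in the Cdkn1c window.

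p21Cip1 and p57Kip2 belong to the Cip/Kip family, whose members bind complexes of cyclins and cyclin-dependent kinases and block them. A myoblast leaves the cell cycle for good before it fuses and makes muscle proteins, and mice that lack both genes fail to form normal muscle because their myoblasts do not stop dividing. Cdkn1a is a classical target of p53 and is also switched on by myogenic factors such as MyoD. Cdkn1c is imprinted and is expressed from the maternal allele, in a domain governed by the non-coding RNA Kcnq1ot1. Myf6, also called MRF4, belongs with MyoD to the myogenic factors, which hold a basic helix-loop-helix domain and bind the E-box, CANNTG.

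The cells were mouse embryonic fibroblasts from mice that combined Pax7-CreERT2, a Rosa26-LSL-tdTomato reporter and the transactivator CAG-rtTA3. All of them carried a lentiviral Myf6 with an HA tag behind a doxycycline-responsive promoter. They were kept for 24 h in iMPC medium under 1 of 3 treatments: with 2 µg/mL doxycycline and a mix of Forskolin (5 µM), RepSox (5 µM) and CHIR99021 (3 µM), called +Myf6+F/R/C, with 2 µg/mL doxycycline alone (+Myf6), or without doxycycline. Forskolin raises cyclic AMP, RepSox blocks signalling by TGF-β through its type I receptor and CHIR99021 is an inhibitor of GSK3. For HA and for the control IgG there were 2 libraries per treatment, and 1 library with an antibody against H3K27me3, the mark of Polycomb-repressed chromatin, came from +Myf6+F/R/C cells. Myf6 was thus overexpressed from a transgene, and the binding of endogenous Myf6, which carries no tag, was not measured. The peak lists do not measure expression, so neither the level of Cdkn1a and Cdkn1c nor the markers of the cell type could be checked. The label of the H3K27me3 library carries the number 1, but its library name shares its prefix with replicate 2 of that treatment.

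Depth differed between the lists. Recovered from the lists themselves, it ranged from 30.6 to 61.9 fragments per 10 kb over the induced HA libraries and was 30.6 and 23.7 for HA without doxycycline. IgG libraries were shallower (8.25 to 22.7), and the H3K27me3 library had 54.3. Fragment length was not measured and was taken as the width of the narrowest peak of a list. It was 161 to 172 bp in induced HA libraries, 152 and 108 bp for uninduced HA and 104 to 166 bp for IgG. Because a longer fragment lies over more positions, pileups are set between libraries after division by the lowest expected pileup of the library, which takes in both depth and fragment length; this scale was chosen after the data were seen. A summit pileup is the number of fragments that lie over the highest point of a peak, and the fold is the authors' enrichment over the background of the same library. Positions are given in kb from the middle of a window, which is 29315000 for Cdkn1a and 143013500 for Cdkn1c.

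For Cdkn1a, 2 transcript starts had a promoter sequence in RefSeq, and Cdkn1c had none there. They are shown because the E-box is the letter pattern that factors such as Myf6 bind. Each line runs 5′ to 3′ on the plus strand from 250 bases before the start to 50 after it, with E-boxes (CANNTG) in capitals. The sequences and their positions, chr17:29090729-29091028 for the first and chr17:29093519-29093818 for the second, are of GRCm38.p6, an older build, so they cannot be set against the GRCm39 positions of the peaks.
Cdkn1a promoter 1: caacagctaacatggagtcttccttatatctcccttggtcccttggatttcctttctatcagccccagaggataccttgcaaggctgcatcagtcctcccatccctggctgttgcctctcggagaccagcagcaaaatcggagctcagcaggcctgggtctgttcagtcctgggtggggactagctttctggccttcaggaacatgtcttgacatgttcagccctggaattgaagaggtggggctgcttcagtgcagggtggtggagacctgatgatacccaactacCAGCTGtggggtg
Cdkn1a promoter 2: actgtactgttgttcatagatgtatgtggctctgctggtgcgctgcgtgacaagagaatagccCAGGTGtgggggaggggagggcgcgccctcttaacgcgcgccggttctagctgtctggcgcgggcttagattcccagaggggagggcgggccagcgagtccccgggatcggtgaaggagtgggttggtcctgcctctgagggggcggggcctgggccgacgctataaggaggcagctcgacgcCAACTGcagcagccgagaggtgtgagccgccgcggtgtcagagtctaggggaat

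The starts lie 2790 bp apart. The first promoter held 1 E-box, CAGCTG, which begins 38 bases into the transcribed part. The second held 2, CAGGTG from base -187 and CAACTG from base -4. Its share of G and C was 64.7%, and that of the first 54.7%. Of 32841 RefSeq promoters of this length, 72.3% held a CANNTG, 16.3% a CAGCTG and 20.2% a CACCTG or its reverse complement CAGGTG; each of these patterns is thus common. CAGCTG and CAGGTG are forms of CANNTG and are counted in it as well. Whether any peak lies at these starts cannot be read from the sources used here, and no genome sequence of the peaks was used. In the RefSeq order of genes, Trp53cor1, the gene of a long non-coding RNA of the p53 response, comes before Cdkn1a and Rab44 and Cpne5 after it. Cdkn1c is followed by Gm33663, Slc22a18 and Phlda2, and Kcnq1ot1 is among the genes just before it.

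HA peaks were frequent around Cdkn1a in cells with induced Myf6 and nearly missing in cells without doxycycline. The Cdkn1a window held 7 and 4 HA peaks in +Myf6+F/R/C cells, 8 and 5 in +Myf6 cells, and 0 and 1 without doxycycline (replicates 1 and 2). None of the 6 IgG lists had a peak there, but single IgG lists had none in 93.5 to 98.6% of 110 kb tiles. The lowest induced list thus stood above the highest uninduced one for both treatments, and counts of the groups did not overlap. HA peaks covered 2888 ± 916 bp of the window in +Myf6+F/R/C cells, 2363 ± 300 bp in +Myf6 cells and 75.5 ± 107 bp without doxycycline (mean ± SD, n = 2 each).

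The number of peaks in the Cdkn1a window was 5.5 ± 2.12 in +Myf6+F/R/C cells and 0.5 ± 0.707 without doxycycline, a difference of 5 (exact permutation test, two-sided, p = 0.33, 0.857 after Benjamini-Hochberg adjustment over the 8 comparisons, n = 2 each). In +Myf6 cells it was 6.5 ± 2.12, 6 more than without doxycycline (exact permutation p = 0.33, adjusted 0.857, n = 2 each). With 2 lists against 2 the smallest p is 0.33, so neither could pass 0.05, and both comparisons share the same uninduced lists. Induction gave non-overlapping counts in the same direction at 42.3% of all 110 kb tiles of the genome for +Myf6+F/R/C and at 39.0% for +Myf6, so this alone did not set the Cdkn1a window apart. The induced HA libraries were on average deeper. Thinned to the shallowest list of each comparison, with fragment lengths left as they were, the differences were 2.65 for +Myf6+F/R/C and 4.03 for +Myf6. With peaks of −log10 q of at least 5 both were 2.5, and at 10 or more they were 1 and 0.5, with overlapping counts (exact permutation p = 1 for both).

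Over both induced treatments, HA lists had 6 ± 1.83 peaks in the Cdkn1a window and the IgG lists of the same nuclei 0 ± 0 (n = 4 each; exact permutation p = 0.0286, the smallest possible, adjusted 0.229). The HA list was higher in 4 of 4 pairs. An exact permutation that flips signs within these pairs gave p = 0.125, its smallest possible value. Non-overlapping counts of this kind were found in 35.7% of 110 kb tiles. The IgG libraries were shallower, and with all 8 lists thinned to the shallowest of them the difference was 1.18 peaks. It was 0.75 with peaks of −log10 q of at least 10 (exact permutation p = 0.429).

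No difference between the treatments with and without the compounds was detectable at Cdkn1a with 2 lists each. +Myf6+F/R/C cells had 5.5 ± 2.12 peaks and +Myf6 cells 6.5 ± 2.12, a difference of -1, smaller than the spread between replicates (exact permutation p = 0.667, adjusted 1, n = 2 each). The difference was -1 within each replicate number. It turned to 0.5 without +Myf6+F/R/C replicate 2, without +Myf6 replicate 1 and with peaks of −log10 q of at least 10.

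**Figure D1:**
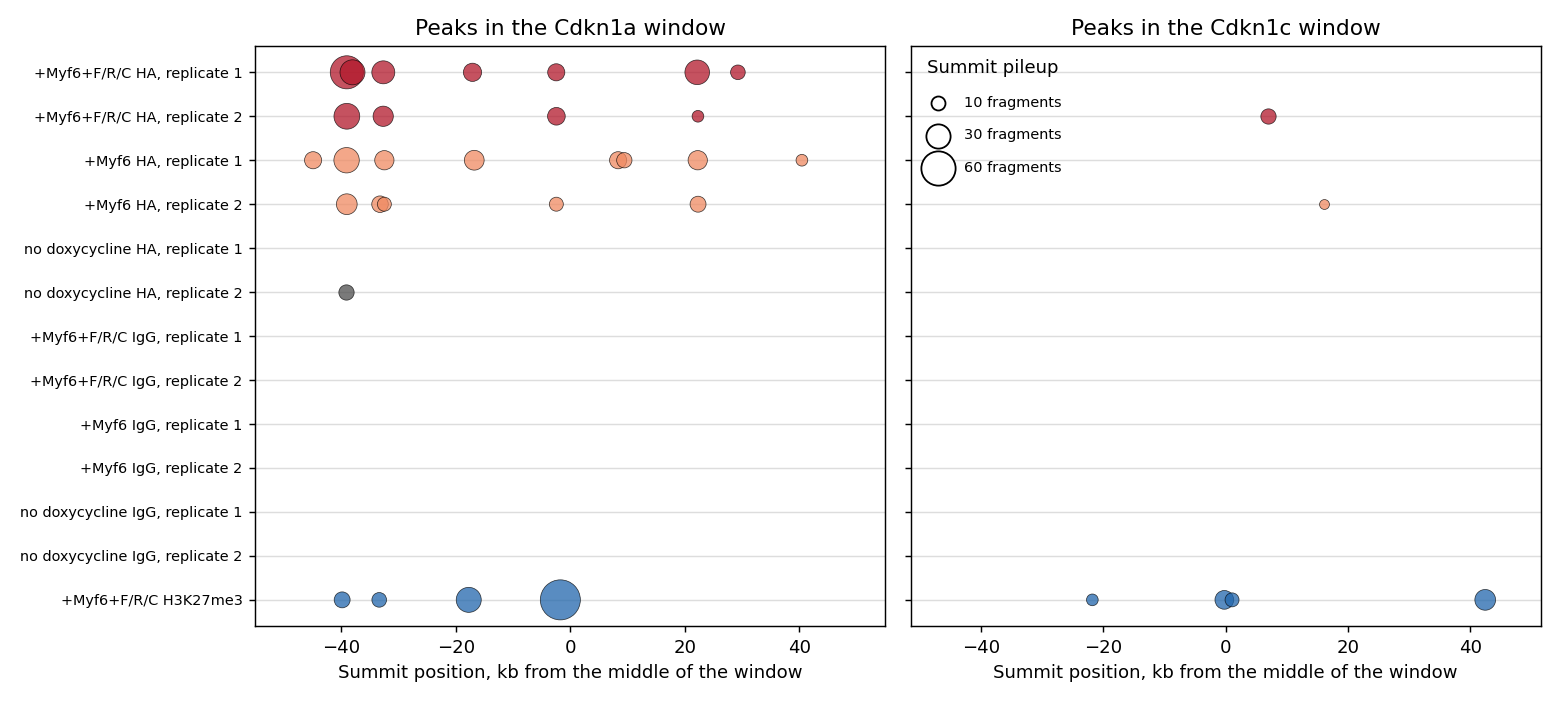
Peaks of all 13 lists in the windows of Cdkn1a (left) and Cdkn1c (right). Each circle is a peak, placed by the distance of its summit from the middle of the window in kb, with an area in proportion to its summit pileup in fragments, and each line is a library. HA peaks of +Myf6+F/R/C and +Myf6 cells recur at 4 places around Cdkn1a and at none around Cdkn1c, and no IgG list has a peak in either window.

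Merged over the 12 HA and IgG lists, the peaks of the Cdkn1a window made 12 regions. Both +Myf6+F/R/C lists had a peak in 4 of them, and both +Myf6 lists in 3. Over the genome, 26.0% of 71864 merged regions had both +Myf6+F/R/C lists and 22.1% both +Myf6 lists. At least 1 region of the first kind lay in 40.4% of the 110 kb tiles, and 1 of the second kind in 36.8%. At least 4 of the first kind, the number at Cdkn1a, lay in 4.15% of tiles, and at least 3 of the second kind in 7.37%. All 4 induced HA lists met in 3 of the 12 regions, against 15.3% of all regions with an induced HA peak (14.8% of all merged regions), and 8 of the 12 were found in 1 list only, against 52.6%. Counting only regions with a peak in both HA lists and none in the 8 control lists (6 of IgG and the uninduced HA lists), Cdkn1a had 3 sites of 12 regions in +Myf6+F/R/C cells, against 21.0% of all regions. In +Myf6 cells it had 2 sites, against 17.5%. At least 1 site was present in 36.4% of 110 kb tiles for +Myf6+F/R/C and in 32.3% for +Myf6. At least 3 sites of +Myf6+F/R/C were present in 6.53% of tiles, and at least 2 of +Myf6 in 13.1%.

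The region with the highest pileups lay at -39.1 kb, from 29275193 to 29276665. Its summit pileups were 56 and 34 fragments in +Myf6+F/R/C cells, with folds of 5.44 and 3.96, and 33 and 22 fragments in +Myf6 cells, with folds of 4.96 and 4.18. It was also the only place near either gene with a peak before induction: HA replicate 2 without doxycycline had a peak of 151 bp there, with 12 fragments and a fold of 6.12. That peak removes the region from the sites, as happened to 27.5% of all regions found in the 4 induced lists. Divided by the lowest expected pileup of the library, the summit pileup was 55.1 and 48.3 in +Myf6+F/R/C cells, 48.3 and 44.7 in +Myf6 cells and 46.9 in the uninduced list. The uninduced value lay within the induced ones. Divided by fragments per kb alone, which leaves out fragment length, it lay below them, at 5.07 against 7.20 to 9.04. The 4 induced summits lay within 45 bp, between 29275928 and 29275973, and the uninduced summit at 29275791. Within its own list the peak was among the strongest 2.71 and 15.2% of +Myf6+F/R/C peaks, 8.30 and 25.5% of +Myf6 peaks and 30.4% of the uninduced peaks. Scaled to uninduced replicate 1, which had no peak there, the induced pileups would come to 22.9 fragments, and 15 would have been needed for a call against the background scaled in the same way. The needed pileup would have been reached in 3 of the 6 IgG lists, and in 5 of the 6 with pileups scaled by fragments per kb alone.

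The second region in all 4 lists lay at -32.9 kb, from 29281630 to 29282677, and had no control peak. Summit pileups were 27 and 21 fragments in +Myf6+F/R/C cells and 19 and 14 in +Myf6 cells, with folds of 4.55 and 4.30 in +Myf6+F/R/C cells and 5.09 and 4.08 in +Myf6 cells. Relative to the lowest expected pileup these were 26.6 and 29.8 in +Myf6+F/R/C cells and 27.8 and 28.5 in +Myf6 cells, so the treatments overlapped. The region had more than one summit. The +Myf6+F/R/C summits, at 29282342 and 29282324, were 18 bp apart, while +Myf6 summits lay at 29282527 in replicate 1 and at 29281770 and 29282528 in replicate 2. For +Myf6 replicate 2, the 14 fragments, the fold of 4.08 and the value of 28.5 belong to the peak at 29281770, away from the other lists' summits. Its peak at 29282528 had only 10 fragments and a fold of 3.48, and ranked at 92.4% from the top of its list. The scaled pileups that follow also use the higher peak of that list. Scaled to the uninduced HA lists the pileups would come to 13.1 and 7.20 fragments, against 11 and 8 needed for a call, so that a peak of this height was detectable in replicate 1 and not in replicate 2. It was detectable in 0 of the 6 IgG lists. With pileups scaled by fragments per kb alone, it was detectable in 2 of 2 uninduced HA lists and in 3 of 6 IgG lists.

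The third region in all 4 lists was on the other side, at 22.2 kb, from 29336994 to 29337478. Its folds were 7.36 and 4.26 in +Myf6+F/R/C cells and 6.67 and 7.18 in +Myf6 cells, and 3 of these were the highest HA folds of the window. Pileups were 31 and 7 fragments in +Myf6+F/R/C cells and 19 and 13 in +Myf6 cells. Relative to the lowest expected pileup they were 30.5 and 9.94 in +Myf6+F/R/C cells and 27.8 and 26.4 in +Myf6 cells, so 1 library, +Myf6+F/R/C replicate 2, stood below the other 3. Its peak ranked at 86.9% from the top of its list, while those of the other 3 lists were among the top 6.10 to 12.2%. No control list had a peak here. Scaled to the HA lists without doxycycline the pileups would come to 11.03 and 6.05 fragments where 7 and 6 were needed. In the IgG lists the needed pileup would have been reached in 1 of 6, and by fragments per kb alone in 5 of 6.

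The fourth region was the one nearest to the middle of the Cdkn1a window, at -2.38 kb, from 29312454 to 29312778. Both +Myf6+F/R/C lists had a peak there, with 15 and 16 fragments and folds of 3.87 and 4.55, and so did +Myf6 replicate 2, with 10 fragments and a fold of 4.16. The 3 summits lay within 26 bp, between 29312558 and 29312584. +Myf6 replicate 1 had no peak, although the mean pileup of the others would come to 13.2 fragments when scaled to it, with 9 needed. This makes the region a site of +Myf6+F/R/C and not of +Myf6, but 3 of the 4 induced lists had it. In the HA lists without doxycycline the scaled pileups, 8.98 and 4.93 fragments, were under the 9 and 7 needed. Those in all 6 IgG lists were also under the pileup needed. On this scale a peak of this height was not detectable in any control list. By fragments per kb alone it was detectable in 2 of 2 uninduced HA lists and in 1 of 6 IgG lists, so the answer depends on the scale.

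**Figure D2:**
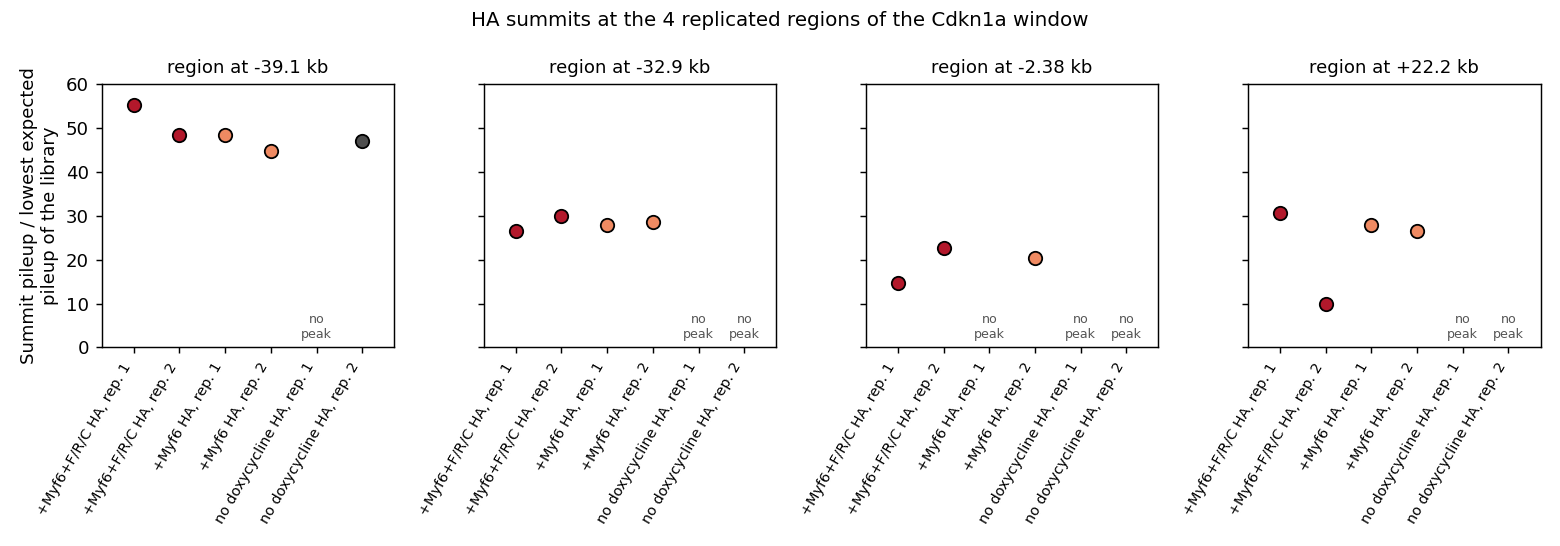
Summit pileup of the HA peaks at the 4 regions of the Cdkn1a window that recur between lists, divided by the lowest expected pileup of the library. Points are single libraries of +Myf6+F/R/C (dark red), +Myf6 (orange) and no doxycycline (grey), and "no peak" marks libraries without a called peak. Values at -39.1 kb run from 44.7 to 55.1 after induction, with the single uninduced peak among them at 46.9. At 22.2 kb, +Myf6+F/R/C replicate 2 stands below the other 3 at 9.94.

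The remaining 8 regions of the Cdkn1a window were in 1 list each, all of them of replicate 1: 3 in +Myf6+F/R/C and 5 in +Myf6. They were 164 to 294 bp wide, with folds of 2.91 to 5.69 and pileups of 7 to 32 fragments. One pair lay side by side near -17 kb, a +Myf6+F/R/C peak at 29297838 to 29298001 with 17 fragments and a +Myf6 peak at 29298154 to 29298329 with 20 fragments. They were 152 bp apart and so counted as separate regions. The peak with 32 fragments, at 29276759 to 29277014, followed the strongest region after a gap of 93 bp and had the lowest fold of the window, 2.91 over an expected pileup of 10.3 fragments. For 7 of the 8 regions, a summit of the same scaled height would have reached the needed pileup in each of the 3 induced lists that lacked it. That height was taken from the only list that called the peak. Some margins were narrow, as 8.23 fragments against 8 in +Myf6 replicate 2 for the peak at 29297838. Others were wide, as 29.7 against 12 in +Myf6+F/R/C replicate 1 for the peak at 29298154. The part of depth and sampling error in the missing peaks was not tested.

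The expected pileup differed between the regions of the Cdkn1a window. It is a local background over 10 kb of the same library, so it takes in fragments of the peak itself and of its neighbours. At the strongest region the expected pileup was 9.48 and 7.84 fragments in +Myf6+F/R/C cells and 5.86 and 4.51 in +Myf6 cells, 9.33 and 11.1 times the lowest expected pileup of the +Myf6+F/R/C lists and 8.58 and 9.16 times that of the +Myf6 lists. At the 22.2 kb region it was 1.25 to 3.29 times the lowest. The -39.1 kb region thus had the higher pileups with a higher expected pileup, and the 22.2 kb region the lower pileups with a lower one. How much of the expected pileup came from the peaks themselves was not tested.

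**Figure D3:**
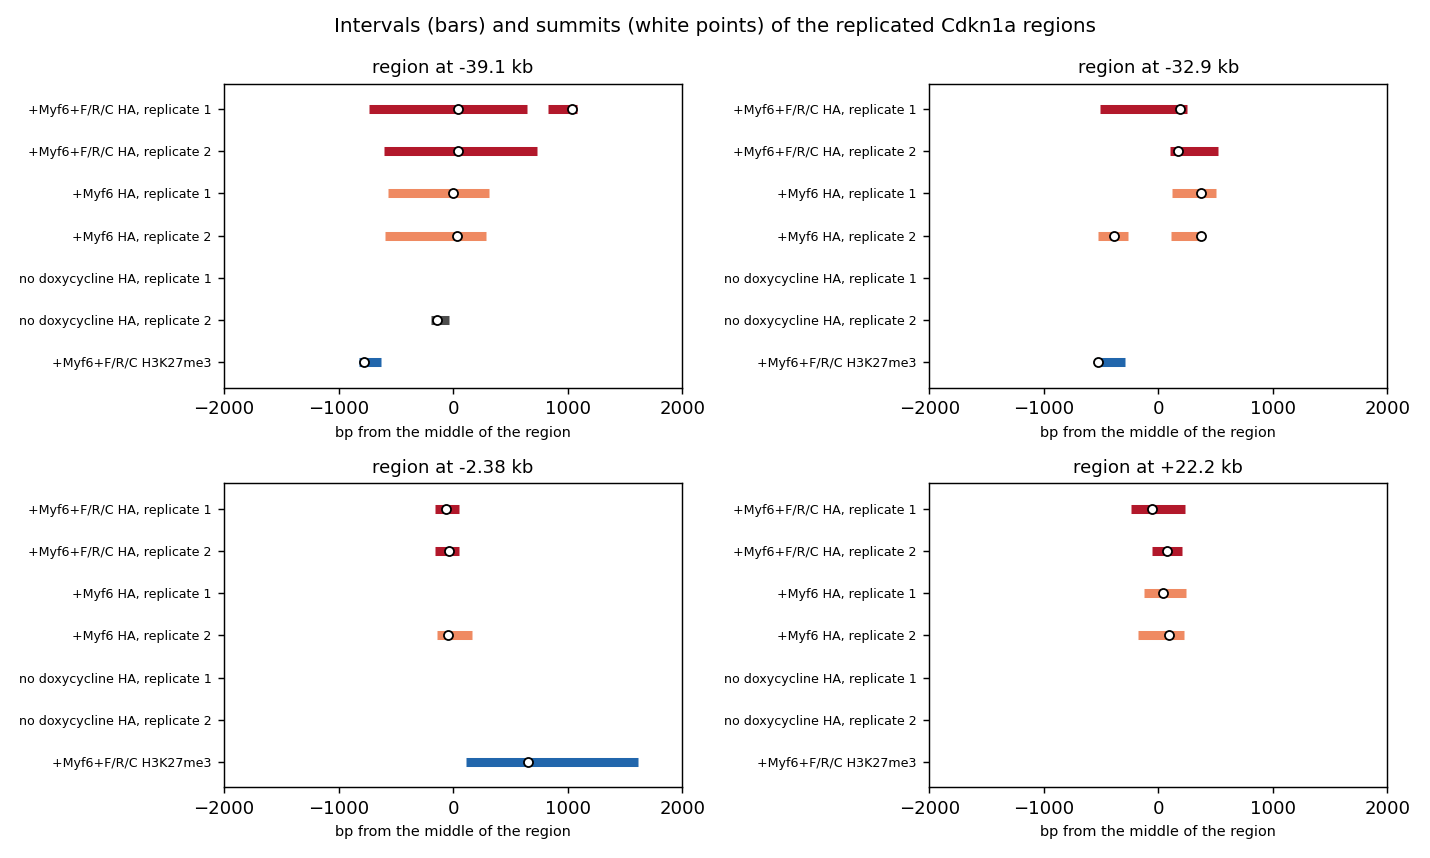
Peak intervals (bars) and summits (white points) at the 4 recurring regions of the Cdkn1a window, in bp from the middle of each region, for the HA libraries and the H3K27me3 library. Summits of the 4 induced libraries lie within 45 bp at -39.1 kb. The H3K27me3 intervals overlap the edge of HA intervals or lie next to them, except at -32.9 kb, where most of 1 +Myf6 interval lies in the mark, and there is none near 22.2 kb.

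Around Cdkn1c, 2 HA peaks were found, and they did not recur. Such a low count was common: 48.7% of 103 kb tiles had at most 2 peaks in the 4 induced HA lists together. The Cdkn1c window held 0 and 1 HA peaks in +Myf6+F/R/C cells, 0 and 1 in +Myf6 cells and none in either HA list without doxycycline (replicates 1 and 2). IgG lists had none, and single IgG lists had none in 93.8 to 98.7% of 103 kb tiles. The +Myf6+F/R/C peak lay at 6.88 kb, from 143020292 to 143020463, with 12 fragments and a fold of 5.81. The +Myf6 peak lay at 16.1 kb, from 143029480 to 143029668, with 5 fragments and a fold of 4.02, which is the smallest pileup of any peak in the windows. The 2 peaks were 9016 bp apart, so no region had both lists of a treatment and Cdkn1c had 0 sites in either. The height of each peak was taken from the only list that called it. Scaled to the 3 other induced lists, both peaks would have reached the pileup needed for a call in each. Among the uninduced HA lists this held in 1 of 2 for the +Myf6+F/R/C peak and in 0 of 2 for the +Myf6 peak. It held in 0 of 6 IgG lists for either. By fragments per kb alone, it held for the +Myf6+F/R/C peak in 2 of 2 uninduced HA lists and 3 of 6 IgG lists. For the +Myf6 peak it then held in 1 of 2 uninduced HA lists and 0 of 6 IgG lists.

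At Cdkn1c the mean number of peaks was 0.5 ± 0.707 in +Myf6+F/R/C cells, 0.5 ± 0.707 in +Myf6 cells and 0 ± 0 without doxycycline (n = 2 each). Exact permutation tests gave p = 1 for each treatment against no doxycycline and for the treatments against each other. Induced HA lists against their IgG lists, 0.5 ± 0.577 and 0 ± 0 peaks (n = 4 each), gave an exact permutation p of 0.429, adjusted 0.857. Of 103 kb tiles, 35.0% held a +Myf6+F/R/C site and 31.0% a +Myf6 site, and 39.1 and 35.5% held a region in both lists of +Myf6+F/R/C and of +Myf6. The counts overlapped between the groups at Cdkn1c. They did not overlap in 41.0% of such tiles for +Myf6+F/R/C over no doxycycline, in 37.5% for +Myf6 over no doxycycline and in 34.2% for induced HA over IgG. The nearest site of both treatments on one side lay 102.4 kb from the middle of the Cdkn1c window, from 142910772 to 142911342. On the other side the nearest lay at 171.7 kb for +Myf6+F/R/C (143185061 to 143185377) and at 203.8 kb for +Myf6 (143217031 to 143217667).

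Set against tiles of equal length, the windows differed. The 4 induced HA lists together had 24 peaks in the Cdkn1a window and 2 in the Cdkn1c window. At least 24 were found in 2.13% of 24147 tiles of 110 kb, whose median was 3, and at least 2 in 57.2% of 25788 tiles of 103 kb, whose median was also 3. This sum counts a place once for each list with a peak there. List by list, 3.40 and 12.4% of the 110 kb tiles had at least the Cdkn1a count for +Myf6+F/R/C (replicates 1 and 2). For +Myf6 it was 0.547 and 8.19%, so the counts of replicate 1 were the rarer ones. Each of the 4 induced lists had a peak in 38.5% of the 110 kb tiles, as in the Cdkn1a window, and in 36.9% of the 103 kb tiles. At least 1 region in all 4 induced lists was present in 28.6% of the 110 kb tiles and in 27.2% of the 103 kb tiles. Tiles include stretches with no genes, and the windows were chosen for the genes in them. The nearest +Myf6 sites outside the Cdkn1a window were 107.8 and 185.7 kb from its middle, and the nearest +Myf6+F/R/C sites 61.4 and 75.1 kb.

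**Figure D4:**
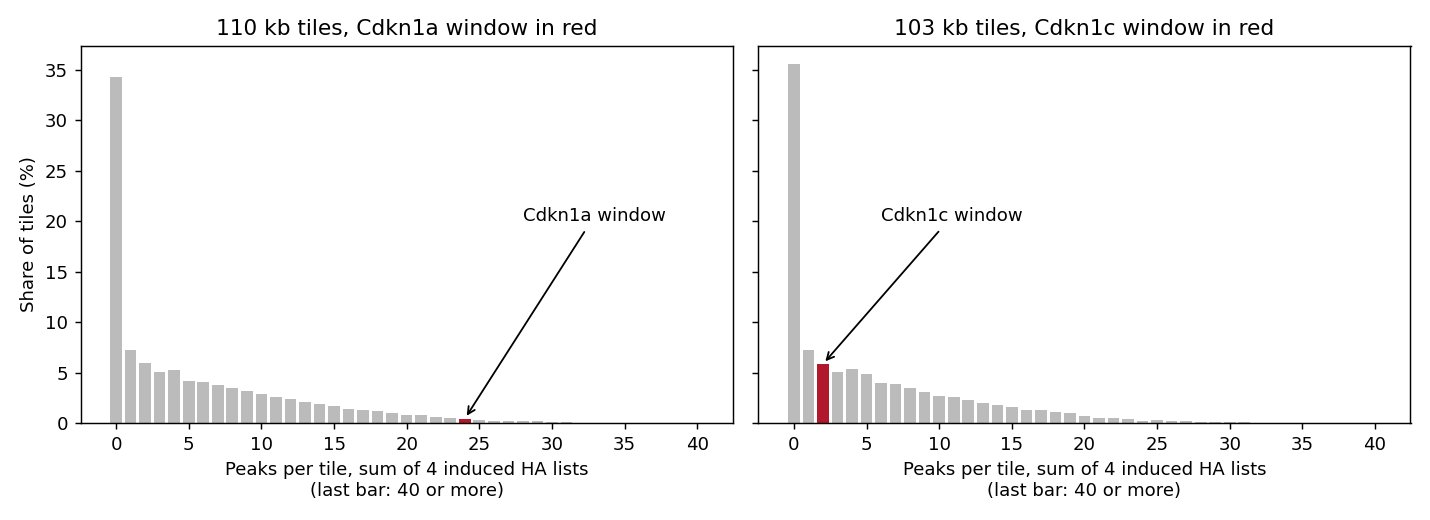
Number of peaks per tile, summed over the 4 HA lists of +Myf6+F/R/C and +Myf6 cells, for tiles as long as the Cdkn1a window (left) and the Cdkn1c window (right), with the share of tiles in % on the vertical axis. The red bar is the value of the window: 24 peaks for Cdkn1a, in the upper tail, and 2 for Cdkn1c, below the median of 3.

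H3K27me3 peaks lay in both windows, 4 in each, in +Myf6+F/R/C cells. At least 1 was present in 47.5% of the 110 kb tiles and 46.2% of the 103 kb tiles, and at least 4 in 13.4% and 12.2%. Those around Cdkn1c included 2 close to the middle of the window, at -0.218 kb (143013156 to 143013717, 18 fragments, fold 5.52) and 1.04 kb (143014451 to 143014674, 10 fragments, fold 3.12). The others were at -21.8 kb (7 fragments, fold 4.22) and at 42.5 kb (143055485 to 143056459), the strongest of the window with 22 fragments and a fold of 7.28. In order of position, these 4 peaks ranked at 84.9, 52.3, 98.4 and 41.0% from the top of the H3K27me3 list. Neither HA peak of the Cdkn1c window met any of them, and the nearest was 5617 bp away.

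Around Cdkn1a the largest H3K27me3 peak spanned 1505 bp just beside the region at -2.38 kb, from 29312726 to 29314230. It had 82 fragments at its summit and a fold of 3.75, with an expected pileup of 21.1 fragments. The peak at -17.7 kb (29296953 to 29298102) had 32 fragments and a fold of 6.20. Smaller ones, with 13 and 11 fragments, lay at -39.8 and -33.4 kb. They were weak calls, ranked at 83.5 and 84.1% from the top of the H3K27me3 list. The largest peak and the one at -17.7 kb ranked at 29.5 and 37.6%. Of the 25 HA peaks of the Cdkn1a window, 5 shared at least 1 bp with an H3K27me3 peak, and 2 had their summit inside one. For these counts of single peaks the share over all HA peaks is not given here. Merged, 4 of 12 regions met the mark, against 26.1% of all merged regions and 26.7% of those with an induced HA peak. Of the 3 +Myf6+F/R/C sites, 2 did, against 32.3% of all such sites, and of the 2 +Myf6 sites 1 did, against 32.0%.

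At the recurring regions the overlaps differed between lists. At -2.38 kb the overlap of 53 bp came from +Myf6 replicate 2 alone, and both +Myf6+F/R/C peaks ended 56 and 61 bp short of the mark, with summits 715 and 689 bp from its summit. At -39.1 kb it came from +Myf6+F/R/C replicate 1 alone, over 107 bp, and the other induced peaks began 22 to 58 bp beyond the mark. At -32.9 kb the mark met +Myf6+F/R/C replicate 1 and the lower of the 2 peaks of +Myf6 replicate 2, over 215 and 231 bp, and the summit of that +Myf6 peak lay inside the mark. The other summit inside the mark belonged to the +Myf6+F/R/C peak near -17 kb. The region at 22.2 kb was 22763 bp from the nearest H3K27me3 peak. The mark was measured in +Myf6+F/R/C cells only and in 1 library, so its level without Myf6 or without the compounds cannot be given.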

How the data were processed

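CUT&RUN cuts chromatin where an antibody tethers a nuclease. Per the labels' protocols, each replicate's HA and IgG reactions shared 1 preparation of nuclei, and Drosophila nuclei were added as a spike-in, which was not used here. The authors deposited 1 list of narrow peaks per library. Per the submitters' processing notes, MACS2, deepTools and DiffBind were used with GRCm39. The sources used here give no versions and no aligner. The deposited lists hold a fold enrichment (a ratio) at each summit, the −log10 of its p-value and q-value, a whole-number score that was not used, and the summit's position.

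Summit and expected pileups were recovered by taking the fold as (k + 1)/(λ + 1) for a whole pileup k, with λ expected, and requiring that the Poisson probability of k match the deposited −log10 p-value to within 0.002. The lowest expected pileup and the narrowest peak gave the mean fragments per 10 kb. The recovery was tested on simulated data. Peaks on chromosomes 1 to 19, X and Y were used. A peak belonged to a window if it shared at least 1 bp, tiles count peaks by their middle, and lists were merged where intervals shared at least 1 bp. For thinning, pileups were drawn binomially at the ratio of depths, 20 times. Pileups and backgrounds were scaled between lists by the lowest expected pileup. The scaled pileup was set beside the smallest one that reaches the list's lowest −log10 p-value. Where stated, pileups were scaled by fragments per kb alone and set beside the same needed pileups. Neither scale covers sampling error. Thinning left fragment lengths unchanged. Numbers of peaks were tested by exact permutation over lists, with Benjamini-Hochberg adjustment over 8 comparisons. Folds and pileups were not tested.

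The members, windows and tests were chosen with earlier results of these data known. In full detail, the text gives each region with both HA lists of a treatment. The annotation at hand is of GRCm38.p6, so peaks could not be placed relative to genes: counts over other cell cycle genes and the genes most like the members were planned and not made. The labels do not say whether replicates are separate cultures, so spreads and p-values may be technical. Depth limits which weak peaks are called. Computed with Python 3.11.15, numpy 2.4.6, scipy 1.17.1, pandas 2.3.3 and matplotlib 3.10.9.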

Additional observations from a re-analysis of the deposited data

Results flagged for a closer look

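The H3K27me3 library entered no comparison, and it had 4 peaks in the Cdkn1a window and 4 in the Cdkn1c window, where both +Myf6+F/R/C IgG lists had none. The H3K27me3 library was deeper, with 54.3 fragments per 10 kb against 19.1 and 8.25 in those IgG libraries, and the part of depth in the difference was not tested.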

How the results depend on the processing

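Alternatives were fixed with earlier results known. For the 8 comparisons of peak numbers and the 4 counts of sites, 90 alternatives kept direction and side of 0.05 by the adjusted p, which no comparison passed, 19 moved to or from 0 (counts of sites: by over 1.5 times), and 3 reversed. Induction and HA against IgG stayed positive at Cdkn1a under every setting tried, but at −log10 q of at least 10 they were 1 (+Myf6+F/R/C), 0.5 (+Myf6) and 0.75 (HA against IgG). The unadjusted exact permutation p of HA against IgG, 0.0286, was 0.0571 without any 1 library, the smallest possible there, 0.125 with the replicate block and 0.429 at 10. There +Myf6+F/R/C minus +Myf6 (-1) was 0 at −log10 q of at least 5 and 0.5 at 10, and ran from -2.5 to 0.5 without 1 library. Without 1 library it was 3.5 to 6.5 for +Myf6+F/R/C and 4.5 to 7.5 for +Myf6 against no doxycycline, and 5.33 to 6.67 for HA against IgG. At Cdkn1c, +Myf6+F/R/C minus no doxycycline (0.5) was 0 at 10 and 0 to 1 without 1 library; +Myf6 minus no doxycycline (0.5) was 0 at 5 and at 10 and 0 to 1 without 1 library; the treatments differed by 0.5 at 5, -0.025 after thinning and -0.5 to 0.5 without 1 library; HA minus IgG was 0 at 10 and 0.33 to 0.667 without 1 library. Sites at Cdkn1a were 1 per treatment at 5, and without 1 HA list 3 to 6 for +Myf6+F/R/C and 3 to 7 for +Myf6; at Cdkn1c 0 to 1. Without the control filter they were 4 and 3. With the replicate block, differences were 5 and 6 against no doxycycline at Cdkn1a and exact sign flips gave 0.5, the smallest for 2 pairs; no adjusted call changed. Replicate differences of the 2 induced treatments correlated at r = 0.113 over regions, and the numbers' meaning is not stated. The counts over the cell cycle list were not run.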
